A study of Homo sapiens
Mus musculus and Homo sapiens with 21 samples.

Results

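The members of this gene set were the 91 genes of the human expression table, of 34058 in all, whose symbols name subunits of respiratory complexes I, III and IV and of the ATP synthase, which is complex V. Genes were chosen by symbol alone: those starting with MT-ND, MT-CO, MT-CYB or MT-ATP, with NDUFA, NDUFB, NDUFS or NDUFV and a digit, with UQCR, with COX4 to COX8 or with ATP5. Assembly factors named NDUFAF, nuclear symbols with a hyphen and nuclear symbols that end in P and digits, as pseudogenes do, were left out. The 13 mitochondrially encoded members and the 78 nuclear members are described apart. All 13 mitochondrial members and 72 of the nuclear members were abundant enough to be tested, while 6 nuclear members were too low. The symbols are those of the table, and several have newer names, such as ATP5F1C for ATP5C1. A few carry a family name for another role. ATP5SL is now DMAC2 and ATP5S is now DMAC2L, which are not core subunits of the ATP synthase. COX7A2L is known for its part in respiratory supercomplexes, and NDUFA4 is now placed in complex IV. All values by complex below follow the symbol alone. NDUFA4 and NDUFA4L2 are thus counted with complex I, COX7A2L with complex IV, and ATP5SL and ATP5S with complex V.

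Oxidative phosphorylation couples the flow of electrons along the inner mitochondrial membrane to the making of ATP. Complexes I, III and IV pass electrons from NADH to oxygen and pump protons, and the ATP synthase lets the protons flow back. These complexes are built from products of both genomes: the mitochondrial genome supplies a few hydrophobic core subunits, transcribed inside the organelle as long polycistronic RNAs that are cut apart at the tRNAs between genes, and the nucleus supplies all the other subunits, which are made in the cytosol and imported. Complex II is wholly nuclear.

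The study followed H2030-BrM3, a brain-metastatic derivative of the human lung adenocarcinoma line H2030, in different surroundings. RNA was sequenced from cells in monolayer (3 libraries, passaged every 3 to 4 days), subcutaneous tumours (SQ, 4 libraries), and forebrain (FBMet) and hindbrain (HBMet) with metastases (3 libraries each), and tumour-free forebrain and hindbrain (4 libraries each) gave the background of human reads in mouse brain. Mice were athymic nu/nu animals, 5 to 6 weeks old when cells were injected into the heart or, in Matrigel, under the skin, and no genetic change or drug treatment is named for any group. Tumours were dissected with surrounding stroma and flash frozen, so human reads report on the cancer cells and mouse reads on the host. Brain metastases below means the 6 FBMet and HBMet libraries. All groups derive from 1 cell line, and the labels do not say which libraries came from separate cultures or animals, so p-values measure the spread between these libraries.

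Monolayer and subcutaneous libraries held 27253282 to 49599168 human reads, and the metastasis libraries held 3579907 to 6897852. The 6 epithelial genes summed to 364 to 401 in monolayer, 960 to 1109 in subcutaneous tumours and 1690 to 2350 in brain metastases, so the list did not mark the groups alike. KRT8, with means of 166.2, 504.3 and 1147 in that order, made up much of the sum, CDH1 had means of 0.901, 12.7 and 67.6, and KRT19 was at 0 in all libraries but 1 of HBMet. The part of this difference in the results was not tested. The 3 lung lineage genes of the list that were measured summed to at most 2.49 in every library. Those of the leukocyte and microglia list summed to at most 1.48, and the 6 neuron genes summed to 8.78 to 16.2 in the metastases and 15.1 to 16.2 in monolayer. The 4 endothelial genes summed to at most 5.00. Other lists differed between groups, with 1 or 2 tested genes each. In monolayer, subcutaneous tumours and brain metastases, fibroblast and muscle genes summed to 21.3 to 22.7, 160 to 203 and 78.1 to 122. Oligodendrocyte genes summed to 234 to 238, 81.8 to 96.8 and 149 to 203 in the same order. Astrocyte genes gave 107.5 to 110.8, 19.3 to 24.6 and 17 to 37.5. The part of these differences in the results was not tested. In tumour-free brain, 16 to 441 reads per library were assigned to the 13 mitochondrial members, and at that rate mouse RNA would supply 0.0939 to 0.161% of the mitochondrial member reads of a metastasis library. At the rate of the highest tumour-free library the share would be 0.333 to 0.573%. All levels are RPKM values (reads scaled to transcript length and sequencing depth) rescaled so that the human genes of every library sum to 1000000.

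Some of the mitochondrial genes share bases, which limits what their separate values mean. The end of MT-ATP8 and the start of MT-ATP6 overlap by 46 bases, and MT-ND4L and MT-ND4 overlap by 7. The 2 junctions are shown from GRCh38 because reads lying in them cannot be given to a single gene. Bases that belong to both genes are in capitals, flanked by 12 bases on each side, from chrM:8515-8584 and chrM:10748-10778 on the plus strand.
MT-ATP8/MT-ATP6: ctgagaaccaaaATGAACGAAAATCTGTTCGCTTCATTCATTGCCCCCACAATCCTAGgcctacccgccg
MT-ND4L/MT-ND4: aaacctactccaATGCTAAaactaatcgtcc
In each junction the capitals open with the ATG of the downstream gene. MT-ND6, which spans chrM:14149-14673, is the single member read from the opposite strand. Whether the counting used strand is not given in the sources used here, so reads of MT-ND6 and of RNA copied from the other strand cannot be told apart.

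Mitochondrially encoded transcripts made up a much larger part of the human RNA in subcutaneous tumours than in either the monolayer or the brain metastases, while the nuclear members took nearly the same part everywhere. The 13 mitochondrial members summed to 72142, 72294 and 71557 in the 3 monolayer libraries. In subcutaneous tumours the sums were 125598, 157007, 137806 and 145869. They were 83457, 97119 and 88795 in FBMet and 85002, 94106 and 102734 in HBMet. The 3 ranges did not overlap: the monolayer was lowest, the brain metastases lay between, and the subcutaneous tumours were highest. As a share of all human reads, mitochondrial members took 7.26 to 7.29% in monolayer, 12.9 to 16.1% in subcutaneous tumours and 8.07 to 10.1% in brain metastases. In bulk tissue, fewer cells of a kind and less RNA per cell cannot be told apart.

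The 78 nuclear members summed to 9444 to 9992 in monolayer, 9016 to 9633 in subcutaneous tumours, 8634 to 9379 in FBMet and 9459 to 9976 in HBMet. The 6 brain libraries together overlapped both other groups, while the FBMet sums lay below all monolayer and all HBMet sums. The ratio of the mitochondrial to the nuclear sum, which does not depend on how a library is scaled, was 7.43 ± 0.174 (SD, n = 3) in monolayer. It was 15.3 ± 1.79 (SD, n = 4) in subcutaneous tumours and 9.82 ± 0.998 (SD, n = 6) in brain metastases. The brain libraries ranged from 8.52 to 11.2 and overlapped neither of the other groups. Taken by complex, the ratio in subcutaneous tumours against monolayer was 19.1 against 9.28 for complex I, 8.14 against 2.56 for complex III, 25.6 against 12.8 for complex IV and 5.50 against 2.99 for complex V. The mean ratios of the brain metastases were 11.9, 4.40, 16.8 and 4.43 in the same order, between those of the other groups for each complex. For complex V the brain libraries, at 3.64 to 4.96, overlapped the subcutaneous ones, at 4.61 to 6.34. Libraries also differed in other abundant RNA. MALAT1 and NEAT1, RNAs that stay in the nucleus, summed to 812 to 1501 in monolayer, 3868 to 5481 in subcutaneous tumours and 984 to 2167 in brain metastases, and the part of such differences in library make-up in the mitochondrial values was not tested.

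**Figure D1:**
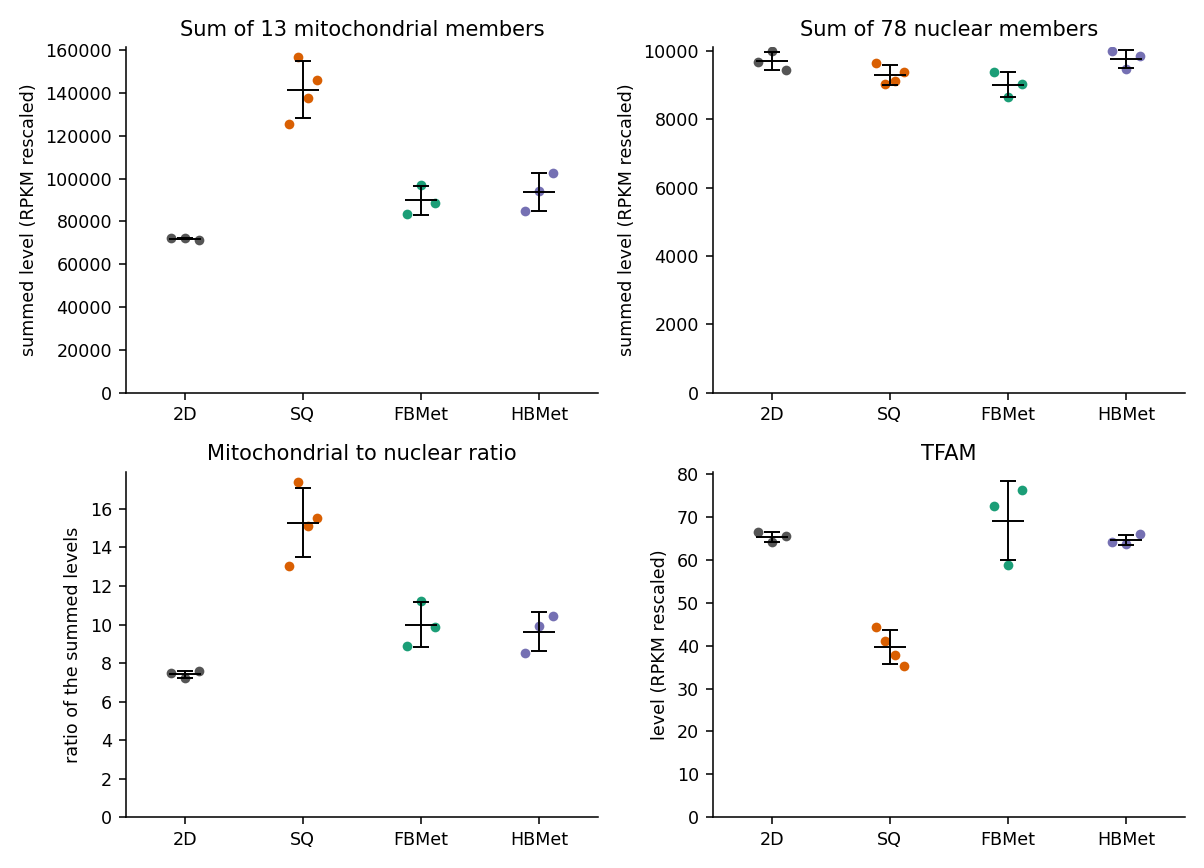
Summed level of the 13 mitochondrial members, summed level of the 78 nuclear members, their ratio, and the level of TFAM, by group (x axis) in rescaled RPKM or as a ratio (y axes from 0); points are libraries, bars are the mean ± SD. The mitochondrial sum of the 4 subcutaneous libraries, 125598 to 157007, stands above all other libraries, the nuclear sums of the monolayer, subcutaneous and brain libraries overlap, and TFAM is lowest in the subcutaneous tumours.

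The first comparison asked how the metastatic cells in brain differ from the same line growing under the skin. Of the 13 mitochondrial members, 11 were lower in brain metastases by limma's moderated test (adjusted p under 0.05), with a median log2 change of -0.55 over the 13. Over all 14557 genes tested, 50.0% passed, 18.8% lower and 31.2% higher, with a median of 0.06. In 9 members every brain library lay below every subcutaneous library, which was so for 10.4% of all genes (31.7% did not overlap in either direction).

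MT-ND1, a core subunit of the membrane arm of complex I, had the largest change. Its level was 8502, 11739, 9000 and 10325 in subcutaneous tumours, 3862, 4958 and 4415 in FBMet and 4303, 4658 and 5530 in HBMet. Brain libraries were lower without overlap, by 1.10 ± 0.0937 on the log2 scale (2.14-fold, limma adjusted p = 5.33e-07). MT-CO1, the catalytic subunit of complex IV, stood at 15154, 17940, 16979 and 17903 in subcutaneous tumours, at 8842, 10150 and 9024 in FBMet and at 9297, 9578 and 10432 in HBMet. The groups again did not overlap, and the fall was 1.78-fold (limma adjusted p = 7.03e-08). MT-CYB, the only mitochondrial subunit of complex III, and MT-ND4 and MT-ND5, both proton-pumping subunits of complex I, fell 1.79-, 1.78- and 1.83-fold. MT-CO3 fell 1.56-fold, MT-ND4L 1.46-fold, MT-ND2 1.42-fold and MT-CO2 1.37-fold.

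MT-ATP6, MT-ATP8 and MT-ND3 changed least. MT-ATP6, the proton channel subunit of the ATP synthase, fell 1.22-fold (limma adjusted p = 0.00563), with 1 subcutaneous library, at 9082, inside the brain range of 7328 to 9483. MT-ATP8 had means of 4907 in brain and 5430 in subcutaneous tumours, and MT-ND3 had means of 6520 and 7160. Neither passed the test (limma adjusted p = 0.106 and 0.141). With libraries scaled to nuclear genes alone, or by median of ratios, all 13 members were lower. With quantile normalization MT-CO2, MT-CO3 and MT-ND3 were instead higher in brain, by 0.12, 0.12 and 0.28 on the log2 scale. The calls of MT-CO1 and MT-ATP6 were then lost, at log2 changes of -0.10 and -0.04 (limma adjusted p = 0.113 and 0.549). MT-ND6, the least abundant member with means of 375.5 and 516.8, passed at an adjusted p of 0.0243 and lost the call without subcutaneous library 2 or 4 or FBMet library 2 (limma adjusted p = 0.0619, 0.0719 and 0.0514).

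**Figure D2:**
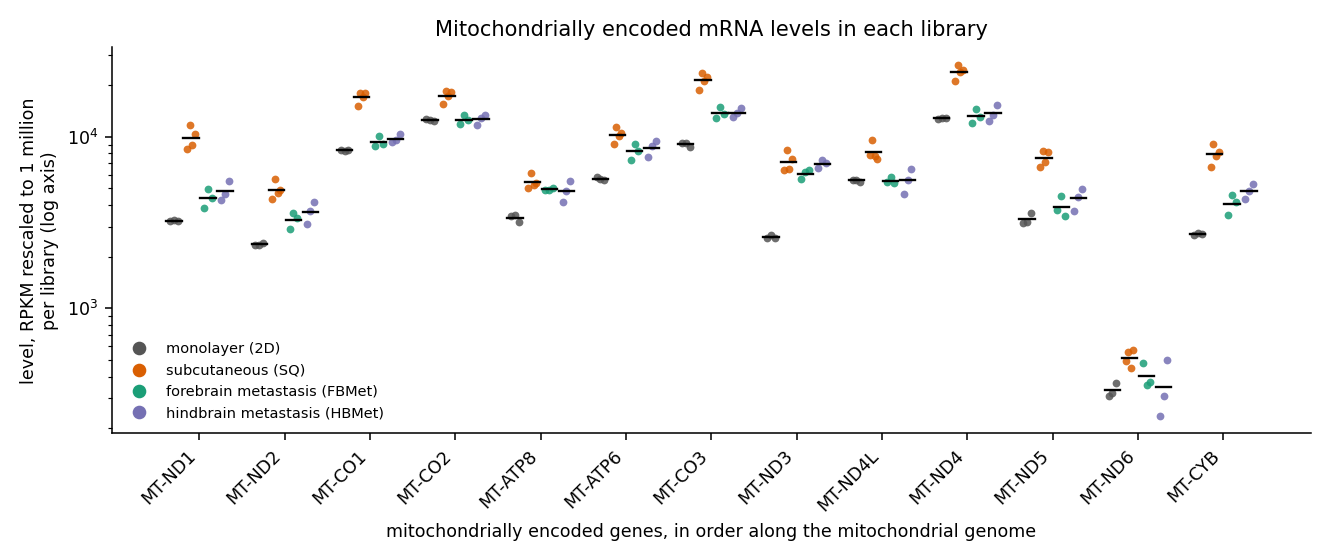
Level of each mitochondrially encoded member (y axis, rescaled RPKM, log axis) in order along the mitochondrial genome (x axis); points are libraries coloured by group and bars are group means. Subcutaneous points lie above monolayer points for every member, and brain points rejoin the monolayer at MT-CO2, MT-ND4L and MT-ND4 but not at MT-ND3 or MT-ATP8.

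The comparison of subcutaneous tumours with monolayer gives the change on moving from culture to a tumour outside the brain. All 13 mitochondrial members were higher in the tumours, without overlap in all 13, and the median log2 change was 1.02. Among all genes 52.4% passed the same test, 21.5% higher and 30.9% lower, and 67.8% did not overlap, 29.5% higher and 38.4% lower. MT-ND1 rose 3.02-fold from 3245, 3269 and 3226 in monolayer (limma adjusted p = 5.68e-08). MT-CYB rose 2.90-fold, MT-ND3 2.73-fold and MT-CO3 2.36-fold. The smallest rises were those of MT-CO2, from a mean of 12510 to 17400 (1.39-fold, turned to a fall of 0.18 on the log2 scale by quantile normalization), and MT-ND4L, from 5565 to 8147 (1.46-fold). MT-RNR2, the large ribosomal RNA of the organelle and no member of the set, rose 1.32-fold (limma adjusted p = 0.00285), less than any member, and it too fell by 0.18 on the log2 scale with quantile normalization. In brain metastases MT-RNR2 was lower than in either other group, 1.65-fold below subcutaneous tumours and 1.25-fold below monolayer (limma adjusted p = 6.66e-06 and 0.0102), and the second call was lost without monolayer library 3 (limma adjusted p = 0.0866) and the first with quantile normalization (limma adjusted p = 0.112). MT-RNR1, the small ribosomal RNA of the organelle, varied widely, from 1299 to 6605 in monolayer and from 1311 to 5991 in brain metastases. Its means were 3423, 2894 and 4026 in monolayer, subcutaneous tumours and brain, and none of these differences passed. The call of MT-ND6 (limma adjusted p = 0.0166) was lost without monolayer library 1 or 2 (limma adjusted p = 0.0624 and 0.0543).

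Brain metastases, grown from cells injected into the heart, were also compared with the monolayer. Here 9 mitochondrial members were higher and none lower, with a median log2 change of 0.50. Over all genes 42.9% passed, 21.9% higher and 21.0% lower, with a median of 0.01, and 38.6% did not overlap, 19.5% higher and 19.1% lower. MT-ND3, a small complex I subunit, rose most. It was at 2572, 2669 and 2588 in monolayer, 5652, 6253 and 6381 in FBMet and 6534, 7297 and 7000 in HBMet, with no overlap and a 2.49-fold rise (limma adjusted p = 1.31e-08). MT-CYB rose 1.62-fold, MT-CO3 1.52-fold, MT-ATP6 1.47-fold, MT-ND2 1.46-fold, MT-ATP8 1.45-fold and MT-ND1 1.41-fold, and in these 6 every brain library was above the monolayer. MT-CO2 had means of 12650 and 12510, MT-ND4 13430 and 12840, MT-ND4L 5568 and 5565, and MT-ND6 375.5 and 333.2, and none of the 4 passed (limma adjusted p of 0.566 to 0.964). The calls of MT-CO1 (1.14-fold) and MT-ND5 (1.24-fold) were lost without monolayer library 1 or 2, that of MT-CO1 also without monolayer library 3 and that of MT-ND5 without FBMet library 2, at limma adjusted p of 0.0502 to 0.104. The monolayer is a control in both this comparison and the one above, so the 2 share those libraries.

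The members did not move as a block, and the make-up of the mitochondrial mRNA pool differed between surroundings whatever the scaling. Shares of the summed level are shown for each member in the plot of the pool. MT-CO2, which carries the copper centre that takes electrons from cytochrome c, made up 17.3 to 17.5% of the pool in monolayer, 11.8 to 12.6% in subcutaneous tumours and 13.02 to 14.3% in brain metastases, 3 ranges that did not overlap. MT-ND3 made up 3.57 to 3.69%, 4.69 to 5.36% and 6.44 to 7.75% in the same order. The share of MT-ND1 was 4.50 to 4.52% in monolayer and 4.63 to 5.38% in brain metastases against 6.53 to 7.48% in subcutaneous tumours. The share of MT-ND4 was 17.7 to 18.0% in monolayer, 16.7 to 17.3% in subcutaneous tumours and 14.3 to 15.0% in brain metastases. No test was run on these shares. The ratio of MT-CO2 to MT-CO1 was 1.496 ± 0.0199 (SD, n = 3) in monolayer, 1.02 ± 0.00535 (SD, n = 4) in subcutaneous tumours and 1.33 ± 0.0442 (SD, n = 6) in brain metastases.

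**Figure D3:**
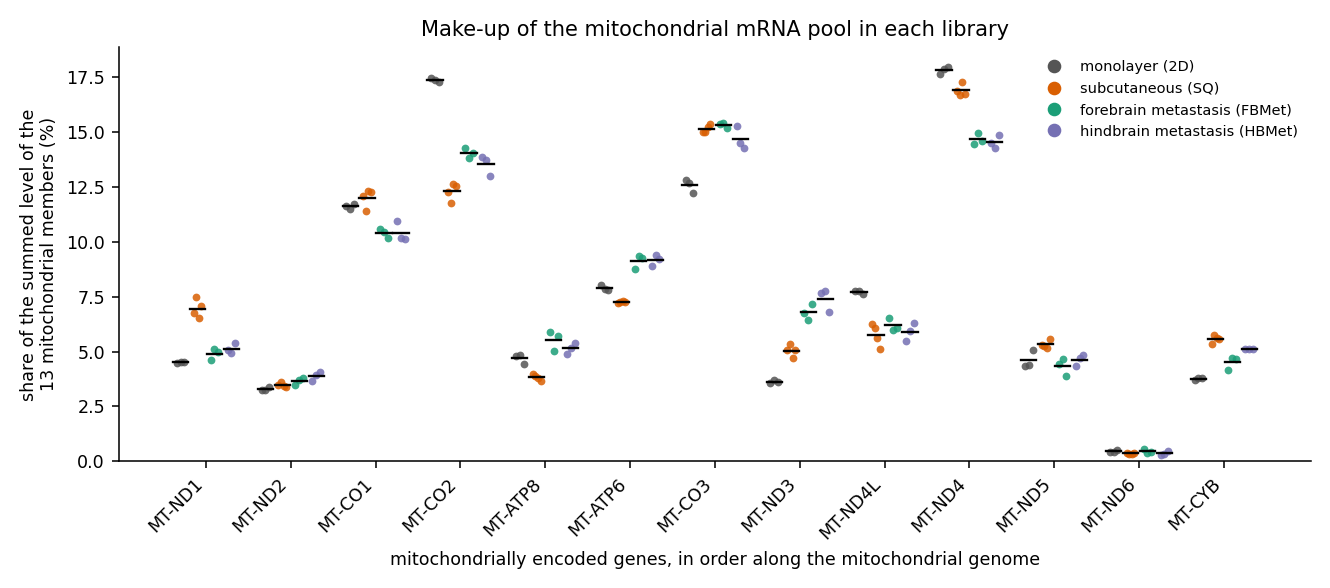
Share of each mitochondrial member in the summed level of the 13 (y axis, percent, from 0) in order along the mitochondrial genome (x axis); points are libraries coloured by group and bars are group means. MT-CO2 is highest in monolayer at 17.3 to 17.5%, MT-ND1 and MT-CYB stand out in subcutaneous tumours, and MT-ND3 is highest in the metastases.

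Position and length both differed between the shares that were above and those that were below. Against subcutaneous tumours, 4 shares were above in every brain library, those of MT-CO2, MT-ATP8, MT-ATP6 and MT-ND3, and 5 were below in every brain library, those of MT-ND1, MT-CO1, MT-ND4, MT-ND5 and MT-CYB. The first 4 lie within chrM:7586-10404, a stretch whose remaining member, MT-CO3, overlapped between the groups. They are also short, with lengths of 684, 207, 681 and 346 bases, while the 5 that were below are 956 to 1812 bases long. The shares of MT-ND2, MT-ND4L and MT-ND6 overlapped as well, although MT-ND4L and MT-ND6 are also short genes. Both lie outside that stretch. Place on the genome and length cannot be told apart for the 9 genes whose shares did not overlap, and the part of fragment length or RNA quality was not tested. The ratio of MT-ND3 to MT-ND4, 2 genes downstream, was 0.203 ± 0.00286 (SD, n = 3) in monolayer, 0.299 ± 0.0206 (SD, n = 4) in subcutaneous tumours and 0.487 ± 0.0434 (SD, n = 6) in brain metastases.

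Nuclear members moved far less, and in both directions. Between brain metastases and subcutaneous tumours, 13 of the 72 were higher and 13 lower, with a median log2 change of -0.02, against 31.2 and 18.8% of all genes. Only 3 of the 26 called members changed by 1.5-fold or more. Of the 35 members of complex I by symbol, 6 were higher and 9 lower, the latter including NDUFA4 and NDUFA4L2. Of the 9 of complex III, 1 was higher and none lower, while the 11 of complex IV gave 2 and 1 and the 17 of complex V gave 4 and 3. This balance depends on the scaling, because a larger mitochondrial share lowers every nuclear value in a subcutaneous library. Scaled to nuclear genes alone, 6 nuclear members were higher and 27 lower, with a median of -0.10. Of all 14557 genes tested, 3466 were then higher and 3675 lower. Median of ratios gave 6 nuclear members higher and 26 lower, where 3553 and 3614 of all genes were.

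**Figure D4:**
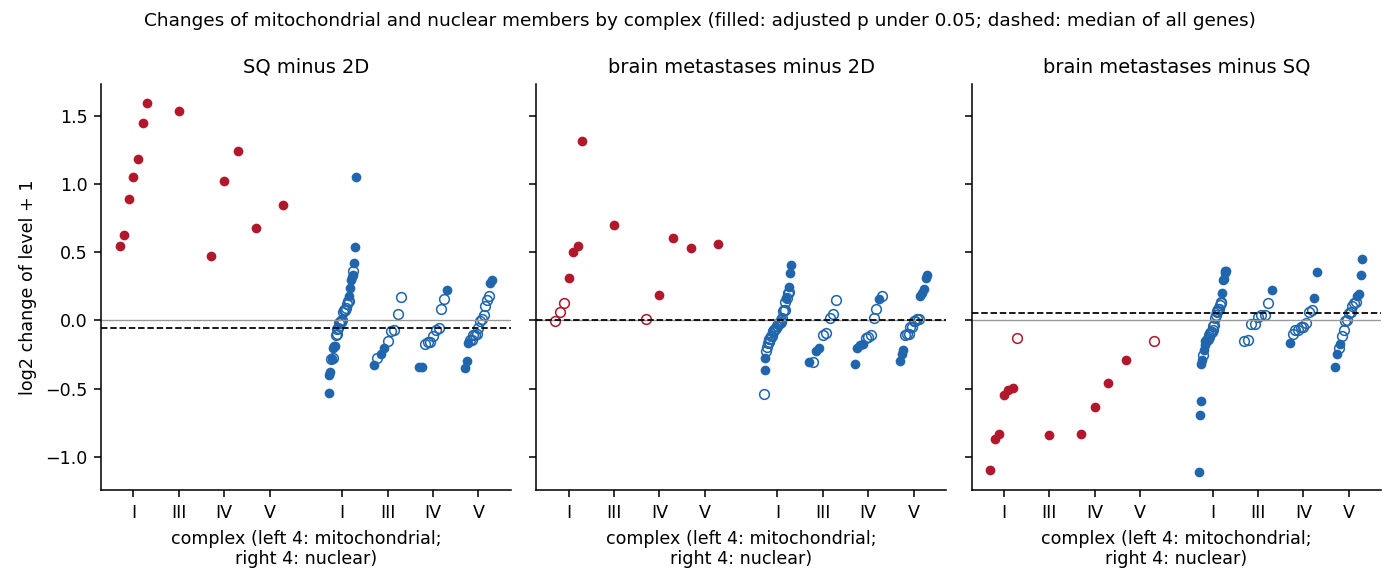
Log2 change of each tested member (y axis) by complex for mitochondrial (red) and nuclear (blue) members in 3 comparisons; filled points have an adjusted p under 0.05 and the dashed line is the median of all genes. The mitochondrial members are shifted as a group, up by a median of 1.02 and 0.50 against monolayer and down by 0.55 against subcutaneous tumours, while nuclear members lie around the median of all genes.

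Among the nuclear members higher in brain, ATP5C1, the gamma subunit of the rotor in the ATP synthase (chr10:7788147-7807815), rose most. It was at 128.1, 115.8, 118.1 and 118.1 in subcutaneous tumours, 146.3, 126.5 and 163.6 in FBMet and 178.4, 197.3 and 184.6 in HBMet. FBMet library 2 lay inside the subcutaneous range, and the rise was 0.45 ± 0.0630 on the log2 scale (1.37-fold, limma adjusted p = 4.33e-05). NDUFS1, an iron-sulfur core subunit of complex I, rose 1.28-fold, from 58.7 to 70.1 in subcutaneous tumours to 74.8 to 94.7 in brain (limma adjusted p = 0.000711). COX7A2L, the supercomplex factor, rose 1.28-fold, and the accessory complex I subunits NDUFA5 and NDUFA3 rose 1.29- and 1.27-fold. The call of NDUFA3 was lost with libraries scaled to nuclear genes (limma adjusted p = 0.0726), and also without subcutaneous library 1 or 2 (limma adjusted p = 0.0556 and 0.0758).

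Leaving aside nuclear members averaging under 5 in both groups, such as NDUFA4L2, the largest nuclear falls in brain were those of the accessory complex I subunits NDUFA11 and NDUFA13. NDUFA11 (chr19:5891276-5904006) was at 28.8, 34.3, 25.9 and 32.9 in subcutaneous tumours, 17.8, 19.3 and 16.7 in FBMet and 19.96, 22.4 and 14.6 in HBMet. The groups did not overlap, and the fall was 1.62-fold (limma adjusted p = 0.000118). NDUFA13 fell 1.5-fold, ATP5O, the stalk subunit also called OSCP, 1.27-fold, NDUFB8 1.25-fold and NDUFA4 1.23-fold. Reads expected from mouse RNA were 0.697% of the metastasis reads of NDUFA11 and 0.596% of those of NDUFA3.

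**Figure D5:**
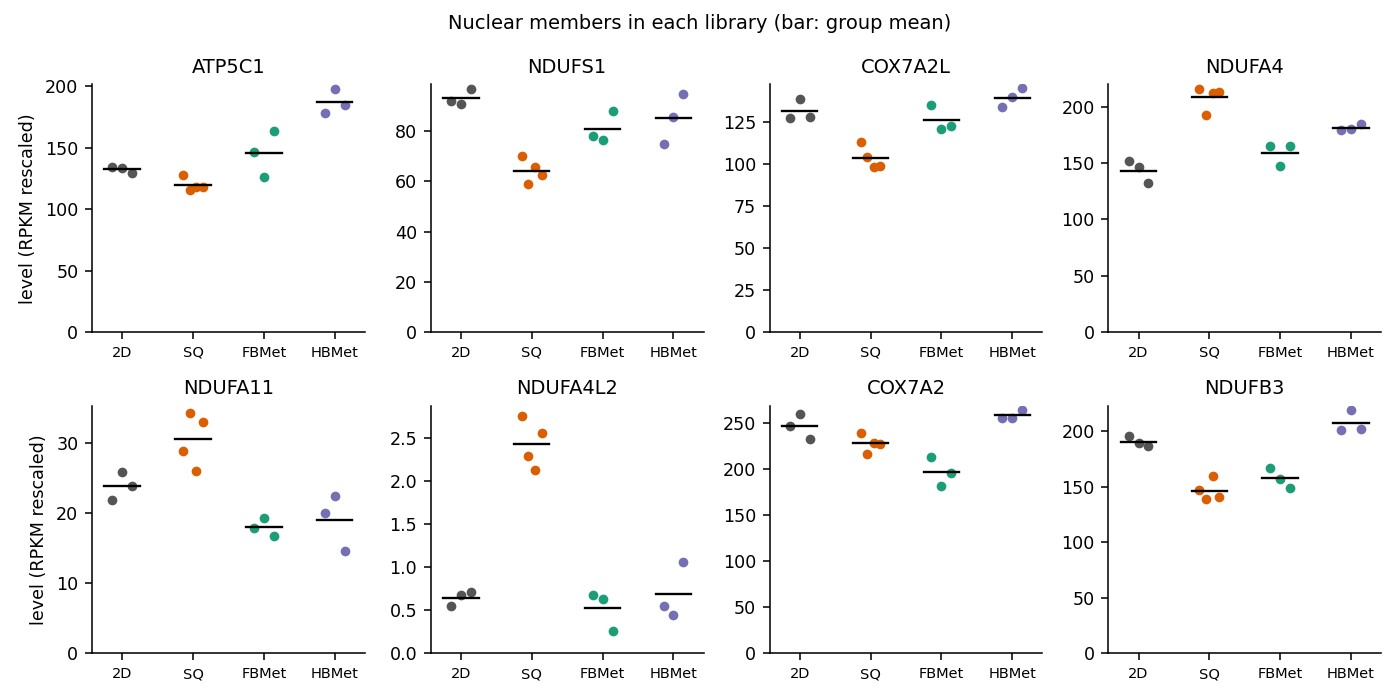
Levels of 8 nuclear members (y axes, rescaled RPKM, from 0) by group (x axis); points are libraries and bars are group means. NDUFA4 and NDUFA4L2 are highest in subcutaneous tumours, ATP5C1 and NDUFB3 are highest in HBMet, and NDUFA11 is lowest in both metastasis groups.

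ATP5C1 and NDUFA11 moved in opposite directions but carry the same motif before their start, which is why both windows are shown. NRF1, a nuclear factor known for activating respiratory chain genes, binds a motif written here as GCGCA, any base, then GCGC. Windows of 250 bases before the start of the MANE Select transcript were read from GRCh38, and the motif was searched on both strands. It was found in 14 of the 78 nuclear members (17.9%) and in 7.68% of 19061 such windows. The window of ATP5C1 is chr10:7787927-7788176 on the plus strand and that of NDUFA11 is chr19:5903791-5904040 on the minus strand, with the motif in capitals.
ATP5C1: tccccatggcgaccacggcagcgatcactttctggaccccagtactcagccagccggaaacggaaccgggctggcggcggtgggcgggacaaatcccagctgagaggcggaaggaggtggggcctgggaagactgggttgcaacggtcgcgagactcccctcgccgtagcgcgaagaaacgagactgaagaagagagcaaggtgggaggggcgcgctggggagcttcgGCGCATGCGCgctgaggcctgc
NDUFA11: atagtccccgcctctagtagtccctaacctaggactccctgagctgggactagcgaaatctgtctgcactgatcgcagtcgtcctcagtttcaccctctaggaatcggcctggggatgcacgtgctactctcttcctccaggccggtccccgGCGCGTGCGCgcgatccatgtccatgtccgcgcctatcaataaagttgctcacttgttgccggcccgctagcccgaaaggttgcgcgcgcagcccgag
Of the 14 members with the motif, 3 were higher and 3 lower in brain against subcutaneous tumours (all genes: 31.2 and 18.8%). Of the 58 tested members without it, 10 were higher and 10 lower. The letters CCGGAAG, the core bound by ETS factors such as GABPA, stood in 19 windows (24.4%) against 11.9% of all windows, and 3 of those members were higher and 2 lower. A match of letters is a description of the window and no evidence of binding.

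In subcutaneous tumours against monolayer, 11 of the 72 nuclear members were higher and 15 lower, smaller shares than the 21.5 and 30.9% of all genes, with a median log2 change of -0.05, as over all genes. Scaling to nuclear genes moved the median of all genes from -0.05 to 0.05 and that of the nuclear members from -0.05 to 0.07. This scaling gave 21 nuclear members higher and 7 lower, where 4117 and 3296 of all 14557 genes were. Median of ratios gave 16 and 9, where 3590 and 3932 of all genes were. NDUFA4 rose 1.45-fold, from 151.5, 146.4 and 132.1 to 215.6, 192.8, 212.6 and 213.4 (limma adjusted p = 6.70e-06). NDUFS3, a core subunit of complex I, rose 1.34-fold, NDUFA11 1.26-fold, NDUFB2 1.25-fold and ATP5E, the epsilon subunit of the ATP synthase, 1.23-fold. NDUFS1 fell 1.44-fold (limma adjusted p = 0.000106), NDUFB5 1.32-fold, NDUFB3 1.30-fold, ATP5SL 1.27-fold and COX5A, a complex IV subunit, 1.27-fold. NDUFA4 and NDUFS1 thus stood on opposite sides of the monolayer in the same tumours. Without monolayer library 1 or 3 or subcutaneous library 4 the higher members numbered 6, 7 and 7, and without monolayer library 2 the lower ones numbered 8. The call of NDUFA11 was lost in 5 of the 7 fits that left out 1 library.

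In brain metastases against monolayer, 10 of the 72 nuclear members were higher and 12 lower, smaller shares than the 21.9 and 21.0% of all genes, with a median of -0.05, and none changed by 1.5-fold. By complex, complex IV gave 1 higher and 4 lower of 11, and complex III none higher and 3 lower of 9. Complex I, counted by symbol with NDUFA4 among those higher, gave 4 and 2 of 35, and complex V 5 and 3 of 17. NDUFB2 rose most, 1.32-fold from a mean of 104.7 to 138.9 (limma adjusted p = 5.14e-05), followed by NDUFA5, ATP5G1 (a gene for the c ring of the ATP synthase), ATP5C1 and NDUFA4 at 1.27-, 1.26-, 1.24- and 1.19-fold. Among the members that fell were NDUFA11 at 1.28-fold, COX6C of complex IV at 1.25-fold, UQCRH, the hinge protein of complex III, at 1.23-fold and ATP5O at 1.23-fold. With scaling to nuclear genes the counts were 14 higher and 11 lower, where 3461 and 2792 of all 14557 genes were. With median of ratios they were 6 and 17, where 2908 and 3383 of all genes were. Without monolayer library 1 or 3 the higher members numbered 6 and 5, and without library 2 the lower ones numbered 5. The calls of NDUFA11 and ATP5O were lost without monolayer library 2 (limma adjusted p = 0.117 and 0.113) or 3 (limma adjusted p = 0.074 and 0.0897), and that of UQCRH without monolayer library 1 (limma adjusted p = 0.0523).

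Some subunits have a tissue-specific or hypoxia-linked partner gene, and in each pair measured the common form was far more abundant. NDUFA4L2, a paralogue of NDUFA4 known as a target of hypoxia-inducible factor 1 that restrains the respiratory chain (chr12:57234903-57240715), was at 2.755, 2.29, 2.13 and 2.56 in subcutaneous tumours. It was at 0.555, 0.685 and 0.710 in monolayer, 0.683, 0.628 and 0.261 in FBMet and 0.548, 0.447 and 1.07 in HBMet. Subcutaneous tumours stood above every other library, and the change was 1.06 ± 0.172 on the log2 scale against monolayer (limma adjusted p = 0.000143) and -1.11 ± 0.146 for brain against subcutaneous tumours (limma adjusted p = 2.50e-05). The brain values rest on 17 reads over 6 libraries, against 365 in subcutaneous tumours and 77 in monolayer, and the added 1 in log2(level + 1) makes these folds too small. NDUFA4 itself had means of 143.4, 208.6 and 170.4 in monolayer, subcutaneous tumours and brain metastases, so NDUFA4L2 stayed far below its paralogue in all of them.

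The other partner genes were near the floor of detection. COX4I2, the lung and hypoxia form of subunit 4, gave 1 read over the 13 libraries, while COX4I1 had means of 524.9, 501.1 and 467.1 in monolayer, subcutaneous tumours and brain. COX6A2, the muscle form, gave 1 read, and COX6A1 had means of 104.2, 122 and 118.3. COX7B2 also gave 1 read. Of the other members too low to test, ATP5L2 gave 3, 6 and 1 reads and NDUFA7 46, 50 and 10 in monolayer, subcutaneous tumours and brain. COX6B2, known from testis, gave 73 reads in monolayer, 29 in subcutaneous tumours and 2 in brain metastases, while COX6B1 had means of 199, 222.3 and 211.9. COX7A2 had means of 246, 227.6 and 227.1, and COX8A 133.9, 118.6 and 124.4. COX4I1 was 1.12-fold lower in brain than in monolayer (limma adjusted p = 0.0137) and COX6A1 1.17-fold higher in subcutaneous tumours than in monolayer (limma adjusted p = 0.0202). The first call was lost without monolayer library 2 (limma adjusted p = 0.0891) and the second without monolayer library 1 or 3 or subcutaneous library 4 (limma adjusted p of 0.0582 to 0.0744). UQCRHL had means of 2.08, 1.54 and 1.53 beside 119.9, 95.5 and 97.9 for UQCRH, and reads can be split between these near-identical copies, so both values are uncertain. COX7A1 and COX8C were not analysed here.

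Forebrain and hindbrain metastases differed little. No mitochondrial member passed the test (limma, adjusted p under 0.05) and 1 had an unadjusted p under 0.05, MT-CYB, with means of 4065 in FBMet and 4808 in HBMet, while voom on the reads called none either. Among the nuclear members, 4 were lower in FBMet and none higher, where 3.30% of all genes passed, 1.45% lower and 1.85% higher. COX7A2, a small structural subunit of complex IV, was at 213, 181.1 and 195.1 in FBMet and 254.6, 254.7 and 264 in HBMet (1.31-fold, limma adjusted p = 0.00647). NDUFB3, of the membrane arm of complex I, was at 166.5, 156.6 and 149 against 201, 218.7 and 202.1 (1.32-fold, limma adjusted p = 0.00613). COX7B was at 60.4, 60 and 57.5 against 77.2, 75.9 and 69.4 (1.25-fold, adjusted p = 0.0114 from limma), and ATP5C1 was 1.29-fold lower (adjusted p = 0.0261 from limma). Over the 72 nuclear members, FBMet lay wholly below HBMet in 15 and wholly above in 1, against 6.57 and 9.07% of all genes (15.6% in either direction). When only the 6 metastasis libraries were fitted, 30 genes in all and none of the 4 passed (limma adjusted p of 0.0943 to 0.241). Leaving out FBMet library 1 gave 9 lower members and leaving out HBMet library 1 gave 2 higher ones. The call of ATP5C1 was lost without FBMet library 2 or HBMet library 2 (limma adjusted p = 0.0655 and 0.0654), and MT-ND6 passed, higher in FBMet, without HBMet library 3 (limma adjusted p = 0.0478). The metastasis libraries are the shallowest of the 13.

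The other genes of the chain were read from lists, and each count is to be read against the share of all genes that passed: 31.2% higher and 18.8% lower in brain against subcutaneous tumours, 21.5 and 30.9% in subcutaneous tumours against monolayer, and 21.9 and 21.0% in brain against monolayer. The 4 subunits of complex II, succinate dehydrogenase, were all lower in subcutaneous tumours than in monolayer. In the brain libraries 3 of them were higher than in the subcutaneous ones, and these 2 comparisons share the subcutaneous libraries. Against monolayer, 3 of the 4 were lower in brain and none higher. The calls of SDHA and SDHD there were lost without monolayer library 1 (limma adjusted p = 0.0566 and 0.055). SDHB, its iron-sulfur subunit, was at 100.5, 104 and 101.2 in monolayer, 79.5, 65.9, 69.4 and 74.5 in subcutaneous tumours, 79.3, 71.7 and 82.1 in FBMet and 91.3, 75.5 and 91.6 in HBMet. SDHC was 1.37-fold lower in subcutaneous tumours than in monolayer and 1.33-fold higher in brain than in subcutaneous tumours. SDHD gave 1.63- and 1.25-fold in the same comparisons. The calls of SDHB and SDHD in brain against subcutaneous tumours were lost with scaling to nuclear genes (limma adjusted p = 0.317 and 0.0845). That of SDHB was also lost in 7 of the 10 fits without 1 library, and that of SDHD without subcutaneous library 3 or 4. CYCS, the electron carrier cytochrome c, was 1.38-fold lower in subcutaneous tumours than in monolayer and 1.24-fold higher in brain than in subcutaneous tumours. It was also lower in brain than in monolayer, a call lost in 7 of the 9 fits without 1 library.

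TFAM, the main regulator of mitochondrial transcription in the organelle, was lowest where the mitochondrial members were highest. TFAM, which packs mitochondrial DNA and starts its transcription, was at 66.5, 64.2 and 65.6 in monolayer, 44.2, 41.2, 37.9 and 35.3 in subcutaneous tumours, 72.5, 58.8 and 76.2 in FBMet and 64.1, 63.8 and 66 in HBMet. Every subcutaneous library was lowest, by 1.64-fold against monolayer (limma adjusted p = 1.26e-05) and 1.67-fold against brain (limma adjusted p = 2.53e-06). TFB1M, a ribosomal RNA methyltransferase of the organelle, was lowest in brain, with means of 28.5, 20.5 and 14.5 in monolayer, subcutaneous tumours and brain, and MTERF1, a terminator protein, had means of 12.3, 18.9 and 24.0. The mitochondrial RNA polymerase POLRMT had means of 59.7, 65.4 and 60.4, and its differences did not pass. Over the 9 genes of this list, 4 were higher and 1 lower in brain against subcutaneous tumours, against 31.2 and 18.8% of all genes. In subcutaneous tumours against monolayer 2 were higher and 2 lower, where 21.5 and 30.9% of all genes were.

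Of 18 genes of mitochondrial RNA processing and stability, 13 were higher and 1 lower in brain against subcutaneous tumours, with a median log2 change of 0.23, against 31.2 and 18.8% of all genes. In subcutaneous tumours against monolayer 2 were higher and 6 lower, the latter near the 30.9% of all genes. FASTKD1, an RNA-binding protein of the organelle, rose 1.71-fold in brain against subcutaneous tumours, FASTKD2 1.45-fold and PNPT1, a subunit of the mitochondrial RNA degradosome, 1.41-fold. LRPPRC, which stabilises mitochondrial mRNAs, had means of 425.5 in monolayer, 271.7 in subcutaneous tumours and 377.5 in brain (1.57-fold lower and then 1.39-fold higher). In the monolayer comparison of the metastases, 6 of the 18 were higher and none lower, against 21.9 and 21.0% of all genes. FASTK rose 1.38-fold and HSD17B10, part of the mitochondrial RNase P, 1.31-fold.

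The tricarboxylic acid cycle, which feeds the chain with NADH, gave 11 lower and 1 higher of 16 genes in subcutaneous tumours against monolayer (median log2 change -0.36), where 30.9 and 21.5% of all genes were lower and higher. It gave 9 higher and 1 lower in brain against subcutaneous tumours (median 0.20), where the shares of all genes were 31.2 and 18.8%. In brain against monolayer 3 were higher and 7 lower, where 21.9 and 21.0% of all genes were. DLAT, of the pyruvate dehydrogenase complex, fell 1.86-fold and SUCLG2 1.70-fold in the first, and OGDH rose 1.62-fold and SUCLA2 1.58-fold in the second. Among 7 hypoxia-induced genes that act on mitochondria, PDK1, the kinase that shuts pyruvate dehydrogenase, was at 22.7, 22.2 and 23.1 in monolayer, 52.8, 51.0, 44.1 and 43.8 in subcutaneous tumours, 17.9, 19.3 and 20.5 in FBMet and 13.6, 19.4 and 18.4 in HBMet. It was 2.06-fold higher in subcutaneous tumours than in monolayer and 2.56-fold lower in brain than in subcutaneous tumours. BNIP3, a receptor for removing mitochondria, rose 1.95-fold and fell 1.6-fold in the same comparisons. LONP1, a matrix protease, was lower in both tumour sites than in monolayer, by 1.42-fold in subcutaneous tumours and 1.41-fold in brain. Of the 7 genes, 2 were higher and 2 lower in each of these 3 comparisons. PDK1 and BNIP3 were the 2 higher in subcutaneous tumours against monolayer and the 2 lower in brain against subcutaneous tumours. In each of these comparisons 2 other genes of the list were called in the opposite direction, so the list did not move as 1.

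Assembly factors are needed to put the subunits together, and their counts in brain against subcutaneous tumours stand beside 31.2% of all genes higher and 18.8% lower, or 62.4% of called genes higher, a share that was 48.5% with scaling to nuclear genes. Of 21 for complex IV, 11 were higher and 1 lower. Of 15 for complex I, 7 were higher and 1 lower, and of 3 for complex V, 2 were higher. ATPAF1, which helps build the catalytic head of the ATP synthase, rose 1.54-fold in brain against subcutaneous tumours, from 36.6 to 39.0 in the latter to 53.4 to 61.9. TMEM70, of the same list, rose 1.498-fold, and PET100, for complex IV, fell 1.63-fold. COX20, a chaperone of MT-CO2, had means of 5.38 in monolayer, 12.2 in subcutaneous tumours and 15 in brain, a rise of 2.06-fold and 2.49-fold against monolayer. For complex III, 1 of 6 was higher and 1 lower. Of 8 tested regulators of mitochondrial biogenesis 2 were higher in brain against subcutaneous tumours, GABPA by 1.3-fold and YY1 by 1.12-fold, the latter not with scaling to nuclear genes (limma adjusted p = 0.128), median of ratios (0.139) or quantile normalization (0.0936). PPARGC1A was too low to test, with means of 0.0198, 0.543 and 0.240 in monolayer, subcutaneous tumours and brain, and NRF1 had means of 8.11, 8.52 and 8.40 in monolayer, subcutaneous tumours and brain and did not pass. Of 10 genes of mitochondrial DNA replication, 3 were higher and 4 lower, among them MGME1, 1.35-fold higher, and POLG2, 1.40-fold lower. Of 12 for coenzyme Q, 4 were higher, a share near that of all genes, and 1 lower, with PDSS2 1.28-fold higher.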

How the data were processed

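Human and mouse RPKM are the authors' deposited values. Builds named in the submitters' notes on processing are hg38 (GRCh38) and mm10 (GRCm38). Which aligner and which counter were used is not stated in the labels or files. Per the labels, total RNA went into standard Illumina libraries. Human RPKM were rescaled to a sum of 1000000 per library, and log2(value + 1) was tested with limma 3.58.1 in R 4.3.3 (trended, robust spread) in 1 fit of 13 libraries. Genes with a level of 1 or more in 3 or more libraries were tested. A call is an adjusted p under 0.05 (Benjamini-Hochberg over all genes of a comparison, two-sided). Values after ± beside a log2 change are standard errors. Folds come from log2(value + 1), which understates low genes.

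Low RPKM values step by whole reads, so reads were recovered: within 0.02, 100% of 33975 human genes above 0 gave whole numbers. Run on these reads, voom called 4964 genes higher and 2474 lower for brain minus subcutaneous, 3748 and 3214 for brain minus monolayer, 4246 and 5757 for subcutaneous minus monolayer, and 62 and 38 for forebrain minus hindbrain. Depth in reads is in the report. Positions and sequences are from GENCODE 44 and its GRCh38 genome. The fit was tested on simulated data. Named genes are all mitochondrial members, the 5 called nuclear members with the largest change per direction and comparison (mean 5 or more where higher), fixed isoform pairs and up to 3 called genes per list. 1 gene that this rule names is not reported here. POLRMT, NRF1, KRT8, CDH1, PPARGC1A, SDHB and other genes outside that rule were added after their values were seen. MT-ATP6 and MT-ATP8 were kept although their symbols end in P and a digit. Members and lists were chosen with earlier results of these data known. Other scalings, filters, pseudocounts, fits and left-out libraries are in the closing section, and no library was left out of the main values.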

Additional observations from a re-analysis of the deposited data

Results flagged for a closer look

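In 3 of 90 sets of values tested, of 4 subcutaneous or 6 brain metastasis libraries each, 1 library stood apart from the others of its group, where chance gives about 1 in 20. NDUFA4 was at 192.8 in subcutaneous library 2, below 212.6 to 215.6 in the others. NDUFS3 was at 79.6 in subcutaneous library 4, above 74.7 to 75.5. COX6A1 was at 139.3 in HBMet library 1, above 110.2 to 118.7 in the other brain libraries.

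For 4 nuclear members the level differed between forebrain and hindbrain metastases by the test of that difference. The log2 changes of FBMet minus HBMet were -0.40 for NDUFB3, -0.39 for COX7A2, -0.37 for ATP5C1 and -0.32 for COX7B.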

How the results depend on the processing

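Scaling changed the counts of called nuclear members, and quantile normalization also made the mitochondrial changes smaller. With it the median log2 change of the mitochondrial members was -0.13 in brain against subcutaneous tumours, where the main fit gave -0.55. The median was 0.44 in place of 1.02 in subcutaneous tumours against monolayer, and 0.38 in place of 0.50 in brain against monolayer. Between brain metastases and subcutaneous tumours, scaling to nuclear genes gave 6 nuclear members higher and 27 lower. Median of ratios gave 6 and 26, and quantile normalization 7 and 29. Of all 14557 genes, these scalings gave 3466 higher and 3675 lower, 3553 and 3614, and 3655 and 3524. Between subcutaneous tumours and monolayer, nuclear scaling gave 21 nuclear members higher and 7 lower, quantile normalization 19 and 7, and median of ratios 9 lower. Over all genes these scalings gave 4117 higher and 3296 lower, 3599 and 3941, and 3932 lower. No filter gave 6 nuclear members higher, where 3329 of 33787 genes were. A fit of these 2 groups alone gave 18 higher, where 4250 of 14557 genes were. With voom 17 were higher and 25 lower, where 4246 and 5757 of all genes were. Between brain and monolayer, median of ratios gave 6 nuclear members higher, where 2908 of all genes were. Quantile normalization left 3 mitochondrial members higher and 7 lower in brain against subcutaneous tumours, with MT-CO2 at 0.12, MT-CO3 at 0.12 and MT-ND3 at 0.28, and 1 lower in subcutaneous tumours against monolayer (MT-CO2 at -0.18, MT-RNR2 at -0.18). Direction was compared only where either setting made a call, and the cause of these changes was not tested. Between forebrain and hindbrain, 204 genes passed with no filter, 30 in a fit of those groups alone and 100 with voom, with 0 and 2 nuclear members lower in the last pair.

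With 1 library left out at a time, brain minus monolayer gave 5 to 13 nuclear members higher and 5 to 15 lower. Subcutaneous minus monolayer gave 6 to 12 and 8 to 14. Over all genes the same fits gave 2448 to 3302 higher and 2245 to 3276 lower, and 2569 to 2992 and 3757 to 4365. Forebrain minus hindbrain gave 297 genes without FBMet library 2 and 735 without FBMet library 3, with 0 to 2 nuclear members higher, 3 to 9 lower, and 0 to 1 mitochondrial members higher. With the replicate number as a block, 10 mitochondrial members were lower in brain against subcutaneous tumours. In subcutaneous tumours against monolayer 12 were higher, and 295 genes passed between forebrain and hindbrain. The block ran over all groups, so it also tied monolayer and subcutaneous libraries to brain libraries without a known link. Only the subcutaneous tumours have a library 4, which thus dropped out of these estimates. The mitochondrial medians, -0.589 and 0.994, were those of the fit without that library. Deviations of equally numbered FBMet and HBMet libraries correlated at 0.044, 0.049 and 0.066, each the best for its number. Libraries that cannot share an animal reached larger values, such as 0.34 for monolayer library 1 with subcutaneous library 3. Correlations this small therefore cannot tell whether equal numbers share an animal, which the labels do not give. The shallow metastasis libraries limit low members such as NDUFA4L2 most.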

Other observations

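Mouse reads of the same libraries give the host's side, a set of values added after the data were seen. The 9 mouse mitochondrial and 77 mouse nuclear genes matching the rule gave a ratio of mitochondrial to nuclear summed level of 0.903 to 1.31 in the host tissue of subcutaneous tumours. It was 2.86 to 3.76 in FBMet, 2.01 to 2.89 in HBMet, 1.43 to 2.91 in tumour-free forebrain and 1.54 to 2.82 in tumour-free hindbrain. Subcutaneous tumours thus had the highest ratio among the human values and the lowest among the mouse values, which come from different tissues and fewer mitochondrial genes. The mouse sum held nothing from mt-Co2 in any library, and mt-Nd3 gave at most 0.00032% of it. The mouse sum is therefore incomplete, and the sizes of human and mouse ratios cannot be compared.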
